A study of Mus musculus with 42 samples.

Results

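This report covers 1 comparison in mouse preimplantation embryos, in which Nanog was targeted with an antisense oligomer and RNA was measured 44 h after injection. It rests on 6 arrays of the 42 in the series: 3 arrays of embryos that received a morpholino against Nanog and 3 arrays of embryos that received a control morpholino in the same experiment, chosen by their titles. All genes on the array were considered. Every group came from the strain B6D2F1, and fertilized 1-cell embryos were injected and then cultured in Human Tubal Fluid with a serum supplement. The control morpholino targets a sequence that mice do not have. A further group of 3 arrays, from uninjected embryos of the same experiment and time, served as a second reference. The series also holds arrays of the Nanog experiment at 20 h, and knockdowns of Oct4 (gene symbol Pou5f1) and Sall4 at both times. The sources used here do not say how many embryos went into an array, and the titles call the 3 arrays of each group biological replicates.

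Nanog is a homeobox transcription factor of the pluripotency network, which also includes Oct4, Sox2 and Sall4. In the mouse blastocyst it marks the epiblast, the cells that form the embryo proper, while Gata6 marks the primitive endoderm and Cdx2 and Gata3 mark the trophectoderm, the outer layer that forms the placenta. Before that, the embryo clears the transcripts stored in the oocyte and starts its own transcription, with a short burst of genes at the 2-cell stage. A morpholino binds an mRNA and blocks its translation or its splicing, so the amount of the target mRNA need not fall, and the labels do not say which action this oligomer has.

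Levels are intensities as deposited, and differences are log2 differences of intensity plus 16, given with a standard error (SE). Tests were made in limma over 15478 genes, p-values were adjusted by Benjamini-Hochberg, and the threshold for a call was 0.05. The median intensity of the 9 arrays at 44 h in the Nanog experiment lay between 193 and 224. Log2 values of replicate arrays correlated with r between 0.913 and 0.949 in these 3 groups, and those of knockdown and control arrays with r between 0.885 and 0.923. The 3 knockdown arrays correlated with one another at 0.913 to 0.916, and knockdown replicate 1 was the least like the controls. Knockdown replicate 3 correlated more closely with control replicates 1 and 3, at 0.923 and 0.922, than with the other knockdown arrays, at 0.914 and 0.916, which correlated with each other at 0.913. Because whole embryos were measured, fewer cells of a type and less RNA per cell cannot be told apart. Of 15, 14 and 11 tested markers of granulosa and cumulus cells, of blood and stroma and of sperm, 0 passed, against 5.01% of all genes. Summed intensities of the granulosa and cumulus list were 15234 to 17121 on knockdown arrays and 15083 to 19085 on control arrays. For blood and stroma they were 2663 to 6712 and 4032 to 7355, and for sperm 4045 to 5218 and 2994 to 3705, so the sums of the sperm list were separate between these groups. Uninjected arrays, at 2958 to 4504, overlapped both, and the part of such cells in the results was not tested. Of the sperm list Ldhc differed most, with means of 1597 on knockdown, 591 on control and 722 on uninjected arrays. Prm1 had means of 1227, 1125 and 1416, and Prm2 of 162, 175 and 221. In the granulosa list Hsd3b1, Inha and Tnfaip6 had means under 10 in all 3 groups, while Gja1, a gap junction protein, had means of 10462, 11213 and 11142 with the Nanog morpholino, the control and no injection, and Amhr2 of 2319, 1756 and 1465.

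The Nanog mRNA did not pass. It read 3086, 1412 and 3562 on the knockdown arrays and 3825, 3718 and 3939 on the control arrays (log2 -0.61, SE 0.528, adjusted p = 0.654). All 3 knockdown arrays lay below all 3 control arrays, and replicate 2 lay far below the other two. Uninjected embryos read 3240.2, 4371 and 3963, a range that overlaps the knockdown arrays, so the separation does not hold against them. The arrays hold no protein measure, so this is a limited check of the labels.

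Pou5f1, which encodes Oct4, fell. It read 3394, 4722 and 3988 with the Nanog morpholino, 6913, 6388 and 6183 with the control morpholino and 7325, 7523 and 6290.2 without injection. The knockdown arrays lay below all others (log2 -0.70, SE 0.186, adjusted p = 0.0236). The call was lost without knockdown replicate 1 or control replicate 1 or 2 (adjusted p from 0.0682 to 0.145). Sall4 read 7844, 7214 and 9006 against 9018, 8268 and 9063, with overlapping groups and a log2 difference of -0.14 (adjusted p = 0.844).

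The windows from 250 bases before to 50 bases after the first listed start of Nanog (chr6:122707239-122707538) and Pou5f1 (chr17:35505782-35506081) are shown because these are the targeted gene and the core partner that fell. They are from RefSeq (GRCm38.p6), on the plus strand and written 5′ to 3′. Capitals mark the letters TTTGCAT (a POU core, contained in the octamer ATGCAAAT read on its other strand), ACAATG (a SOX core) or GGGCGG (the GC box).

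Nanog: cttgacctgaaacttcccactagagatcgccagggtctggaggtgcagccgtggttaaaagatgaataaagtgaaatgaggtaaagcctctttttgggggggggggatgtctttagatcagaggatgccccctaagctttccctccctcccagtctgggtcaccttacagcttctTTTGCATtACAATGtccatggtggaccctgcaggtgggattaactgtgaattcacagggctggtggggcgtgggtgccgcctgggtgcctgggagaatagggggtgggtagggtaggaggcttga
Pou5f1: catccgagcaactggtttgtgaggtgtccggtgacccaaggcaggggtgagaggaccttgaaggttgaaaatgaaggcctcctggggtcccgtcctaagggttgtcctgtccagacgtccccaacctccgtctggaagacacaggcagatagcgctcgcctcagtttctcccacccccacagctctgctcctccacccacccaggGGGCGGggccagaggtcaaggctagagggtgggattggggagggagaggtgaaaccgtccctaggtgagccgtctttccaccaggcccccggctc

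The Nanog window holds TTTGCAT followed 1 base later by ACAATG, 75 and 67 bases before the start, and the Pou5f1 window holds 1 GC box. Both strands were searched for 7 motifs in the 12417 tested genes that have a window, of which 417 were higher and 208 lower with the knockdown. TTTGCAT was in 3.44% of all windows, 4.08% of those of higher genes and 5.29% of those of lower genes, and ATGCAAAT, whose other strand contains it, in 1.42%, 1.44% and 0.962%. ACAATG was in 8.42%, 6.95% and 7.69%, and TAATGG, a homeobox core, in 5.07%, 4.80% and 6.73%. The cyclic AMP element TGACGTCA was in 2.88%, 3.36% and 1.92%, GGGCGG in 57.9%, 62.1% and 55.8%, and the TATA box TATAAA in 8.77%, 7.91% and 7.69%. These shares are a description of letters, and no test was made of them.

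In all, 775 of 15478 genes passed (5.01%), of which 533 were higher with the Nanog morpholino (3.44%) and 242 lower (1.56%). At an unadjusted p under 0.05 there were 2635. The median difference of all genes was 0.05. Among genes that passed, the median size was 1.94 for the higher genes, of which 249 exceeded 2, and 1.80 for the lower genes, of which 98 did. The median SE of all genes was 0.40, so passing itself selects large estimates, and these sizes do not describe all genes. Higher genes had a median control level of 319 and lower genes one of 1767. Of genes with a control level up to 100, 5.14% were higher and 0.255% lower. From 100 to 1000 the shares were 4.05% and 0.994%, and over 1000 they were 2.02% and 2.79%. The shares of all genes set beside the lists below are pooled over these levels. With the 6 arrays alone, 22 genes passed in limma, and 1920 had an unadjusted p under 0.05. Leaving out control replicate 2 gave 410 genes (266 higher, 144 lower), leaving out knockdown replicate 1 gave 414 (323 and 91) and leaving out knockdown replicate 3 gave 972 (565 and 407). Leaving out control replicate 3 gave 160 lower genes, and pseudocounts of 1 and 64 gave 442 and 1266.

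Beyond Pou5f1, pluripotency genes mostly did not pass. Of 34 tested members 2 fell and 0 rose (against 1.56% and 3.44% of all genes), and the median was -0.27, with 26 members below 0. On knockdown replicates 1, 2 and 3 the list's median was -0.19, -0.30 and -0.03, so replicate 3 lay near the controls. Besides Pou5f1 the member that fell was Sall1, a zinc finger factor. Its arrays read 26.5, 763 and 2630.2 against 3407, 3873 and 2351, so replicate 3 lay within the control range, and the call (log2 -2.83, SE 0.809, adjusted p = 0.0358) was lost without knockdown replicate 1 or control replicate 1, 2 or 3 (adjusted p from 0.0546 to 0.423).

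Tdgf1, a Nodal co-receptor, read 3186, 2997 and 3148 on knockdown and 4938, 5802 and 5831 on control arrays, and Zfp42 read 1659, 1917 and 3283 and 3982, 4104 and 3894. Arrays of the groups do not overlap for either gene, which held for 3386 of the 15478 genes tested, and neither passed (adjusted p = 0.291 and 0.288). Klf4 read 7429.9, 6461 and 6895 and 6628, 5919 and 7202 (log2 0.08, adjusted p = 0.926), with groups that overlap. Log2 differences of Sox2, Esrrb, Tfcp2l1 and Fgf4 were -0.30, -0.47, -1.07 and 0.03, and none passed (adjusted p from 0.572 to 0.992). Groups overlapped for Sox2, Esrrb and Fgf4 and were separate for Tfcp2l1.

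Primitive endoderm genes gave 1 rise and 1 fall among 21 tested, or 4.76% each against 3.44% and 1.56% of all genes, with a median of -0.09. Hhex, a homeobox factor, rose from 1242, 944 and 1692 to 2881, 2587 and 2977, and the call (log2 1.15, SE 0.270, adjusted p = 0.00939) was lost without control replicate 2 (adjusted p = 0.0846). Dab2, an endocytic adaptor, fell from 2246, 2246 and 2589 to 600.2, 835 and 1517. Each of these sets of arrays is separate, and the fall (log2 -1.35, SE 0.374, adjusted p = 0.0299) was lost without knockdown replicate 1 or 2 or control replicate 1, 2 or 3 (adjusted p from 0.0629 to 0.194). Gata6, the factor on which the primitive endoderm depends, read 699, 2351 and 3379 with the knockdown and 3393, 3849 and 2739 with the control (log2 -0.89, SE 0.482, adjusted p = 0.362). Its replicate 1 was low and the groups overlap. The other probe sets of Gata6 gave -1.02 and, for a dimmer one, -2.47. Gata6 passed in 1 of 19 alternative runs in limma (adjusted p = 0.0222). Fgfr2, the receptor through which FGF4 acts on these cells, was lower on all 3 knockdown arrays (1203, 1374 and 2965 against 3318, 4211 and 3814) and did not pass (adjusted p = 0.42). Its other probe sets gave -2.20 and, for a dimmer one, -0.88, and Fgfr2 passed in 1 of 19 alternative runs (adjusted p = 0.00507). Gata4 and Pdgfra did not pass either (adjusted p = 0.466 and 0.906). Sox17 was too dim to be tested, with means of 30.6 and 33.1.

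**Figure D1:**
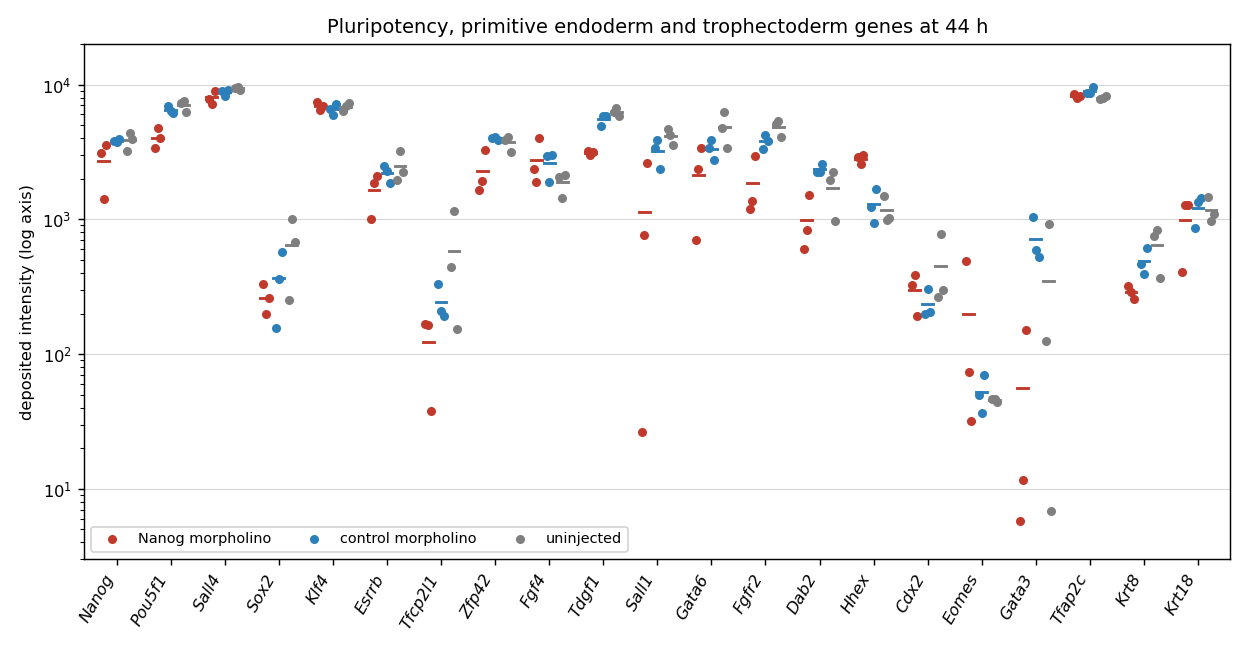
Intensity on a log axis of pluripotency, primitive endoderm and trophectoderm genes at 44 h. Each point is 1 array, short lines are means of 3 arrays, and colours give the Nanog morpholino, the control morpholino and uninjected embryos. The 3 knockdown arrays of Pou5f1 lie below all other arrays, those of Hhex above them, and those of Klf4 overlap both references.

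Trophectoderm genes moved both ways: 4 of 29 rose (13.8%, against 3.44% of all genes) and 1 fell (3.45%, against 1.56%), and the median was -0.13, against 0.05. Leaving out 1 array gave 2 or 3 rises and 0 or 1 falls. Gata3 fell from 1039, 594 and 524 to 5.81, 11.7 and 151. All knockdown arrays lay below all control arrays (log2 -3.92, SE 1.18, adjusted p = 0.0484), but uninjected arrays read 126, 917 and 6.83, so 2 of 3 uninjected arrays lay within the range of the knockdown. The call was lost without knockdown replicate 1 or 2 or control replicate 1, 2 or 3 (adjusted p from 0.0794 to 0.203). The rises were Id2 (described below), Dlx3 (log2 1.69, SE 0.401, adjusted p = 0.0103), Ascl2 (1.68, adjusted p = 0.0169) and Atp1b1, a sodium pump subunit (1.28, adjusted p = 0.0406). Dlx3 and Ascl2 are factors of later trophoblast. Calls were lost for Dlx3 without control replicate 1 (adjusted p = 0.0528), for Ascl2 without knockdown replicate 1 or control replicate 2 (adjusted p from 0.116 to 0.118), and for Atp1b1 without each of the 6 arrays (adjusted p from 0.0545 to 0.16). Cdx2 read 324, 386 and 191 against 198, 306 and 206, with overlapping groups (log2 0.30, adjusted p = 0.934). Eomes, Tfap2c, Krt8 and Krt18 did not pass (adjusted p from 0.492 to 0.905).

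The largest rise was that of Nptx1, a secreted pentraxin of neurons. It read 3659.8, 4484 and 2848 with the Nanog morpholino and 22.2, 25.9 and 789.9 with the control. Control replicate 3 was far brighter than its partners, and the groups were separate (log2 5.05, SE 0.987, adjusted p = 0.00203). A second probe set of Nptx1 rose too (log2 2.98). Tubb3, the beta tubulin of neurons, read 3983, 2983 and 1002 against 34.5, 24.6 and 238. Knockdown replicate 3 was its dimmest, still above each control array (log2 4.84, SE 0.680, adjusted p = 5.04e-05). In the list of neural genes 3 of 35 rose (8.57%, against 3.44% of all genes), namely Tubb3, Chgb and Nes, 0 fell and the median was 0.12. Chgb, a granule protein, and Nes, an intermediate filament, rose by 2.18 and 2.15 on the log2 scale (adjusted p = 0.00188 and 0.00755).

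Ier5, an immediate early gene, read 4865, 2224 and 4323 with the knockdown. Control arrays read 96.4, 145 and 230.5 and uninjected arrays 90.7, 85.3 and 211, so the knockdown stood far above both (log2 4.46, SE 0.484, adjusted p = 3.32e-06). It passed in each alternative run. Other probe sets of Ier5 gave 1.12 and -0.37, with knockdown means of 120.1 and 289. Id2, which binds and inhibits basic helix-loop-helix factors, read 340.0, 709.9 and 563 against 1.79, 1.20 and 7.67 (log2 4.78, SE 0.908, adjusted p = 0.00153). Its other 2 probe sets gave 0.09 and 0.08, so the rise rests on 1 of 3 probe sets, and with the Nanog experiment alone, where another represents the gene, it did not pass (adjusted p = 0.933).

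Fgd6, an exchange factor for a small GTPase, read 2647, 2239.7 and 582 against 31.5, 102 and 75.8 (log2 4.26, SE 0.526, adjusted p = 1.06e-05). A second, dimmer probe set of Fgd6 gave 0.96. Fam43a read 1411, 1464 and 1307 against 56.9, 69.8 and 84.0, with the knockdown arrays close together (log2 4.04, SE 0.622, adjusted p = 0.000163). Fam43a passed in each alternative run. Oosp2, an oocyte-secreted protein, read 3467, 2230.2 and 3067 against 600.0, 51.5 and 78.4 (log2 4.20, SE 0.720, adjusted p = 0.000487). Ptger4, a prostaglandin E2 receptor, rose by 4.0 (adjusted p = 0.0011) and the homeobox gene Lhx2 by 4.19 (adjusted p = 0.00621). The call of Lhx2 was lost without control replicate 1 (adjusted p = 0.056). The remaining 6 of the 15 largest rises were Gm26504, Apobec2, 1700001L05Rik, Zfp503, 4930447F24Rik and 8430429K09Rik, at 3.86 to 4.71. Of these, Apobec2 was lost without knockdown replicate 1 or control replicate 2 or 3 (adjusted p from 0.0564 to 0.122) and Zfp503 without control replicate 1 (adjusted p = 0.0714).

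Among the falls, Niban1 came first. It read 14.1, 16.1 and 113 with the Nanog morpholino and 823, 2251 and 827 with the control (log2 -4.55, SE 0.962, adjusted p = 0.00413), and a second, dim probe set gave 0.48. Ddah1, the enzyme that breaks down an inhibitor of nitric oxide synthase, read 97.9, 344 and 379.8 against 4919, 6156 and 3627 (log2 -4.25, SE 0.782, adjusted p = 0.0011). All 5 probe sets of Ddah1 were lower, at -1.36 to -4.25 on the log2 scale, and with the Nanog experiment alone, where another probe set represents it, the gene did not pass (adjusted p = 0.324).

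P2ry14, a receptor for UDP sugars, read 34.8, 19.3 and 30.1 against 1012, 506 and 1011 (log2 -4.23, SE 0.573, adjusted p = 3.73e-05) and passed in each alternative run. Uninjected arrays read 596, 60.4 and 121, all above the knockdown arrays, and 2 of them far below the control-injected arrays. Ptpn22, a tyrosine phosphatase, fell, with a log2 difference of -3.57 (adjusted p = 0.000195). So did Chm, a Rab escort protein, at -3.69 (adjusted p = 0.000219), and Slc12a7, a potassium chloride cotransporter, at -3.32 (adjusted p = 0.000137). The other falls among the 15 largest, besides Gata3, were 6230400D17Rik, Pilrb1, Septin8, Rhbdd1, Bet1, Acss2, Suclg2 and Parp16, at -3.21 to -3.92. Of these, 6230400D17Rik, Septin8, Rhbdd1, Acss2 and Parp16 did not hold when single arrays were left out (adjusted p up to 0.281). A second probe set of Bet1, with means of 675 and 802, gave 0.03. Parp16 had means of 47.4 with the Nanog morpholino, 797 with the control and 98.1 without injection.

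**Figure D2:**
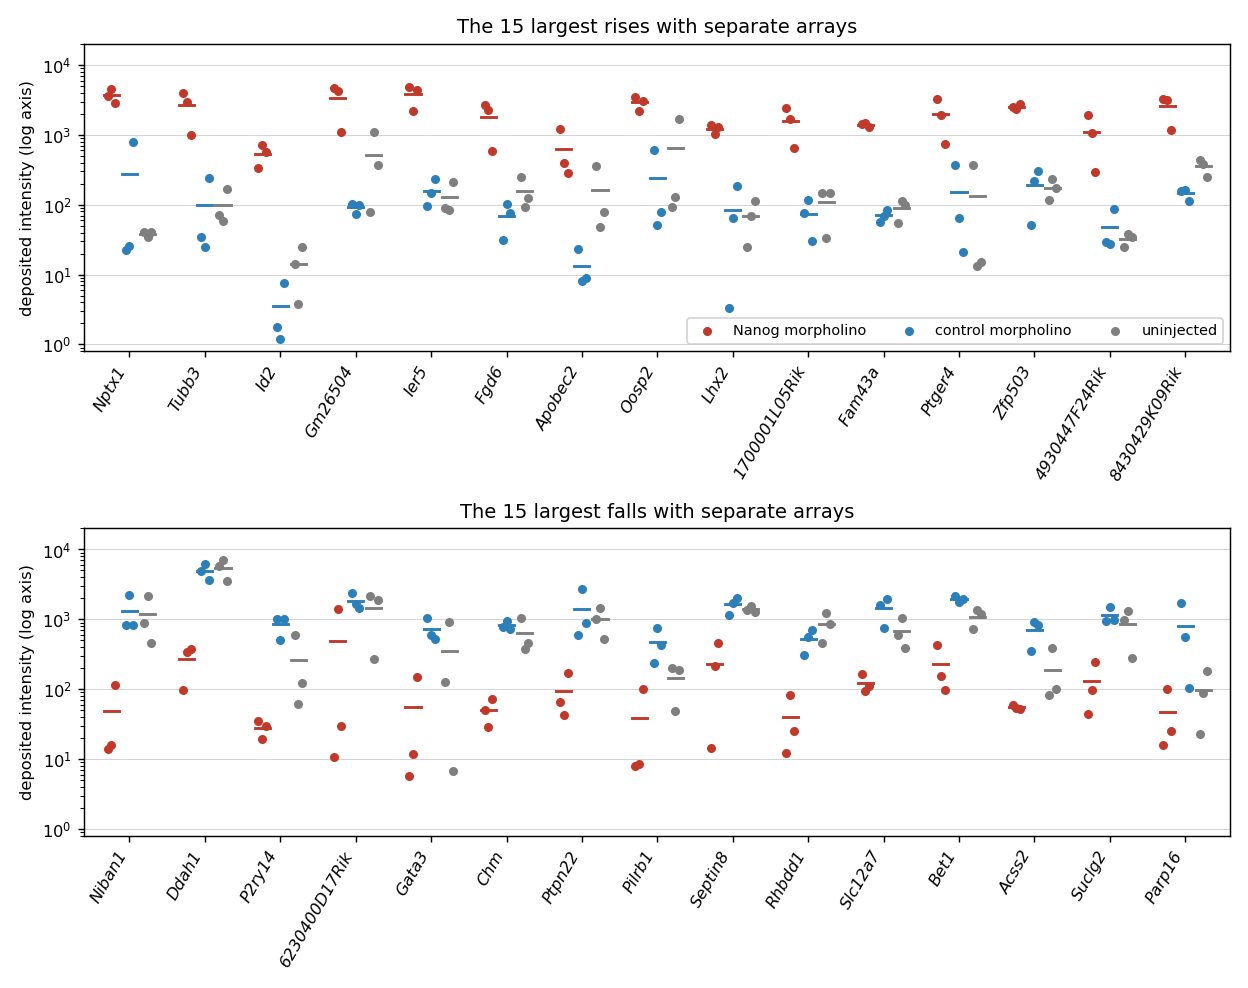
Intensity on a log axis of the 15 largest rises and the 15 largest falls among genes that passed with separate groups. Each point is 1 array and short lines are means of 3 arrays. For Ier5 and Fam43a both references lie together far below the knockdown, while for Gata3 and Acss2 uninjected arrays reach down to or near the knockdown arrays.

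Windows around the start are printed for the 4 largest of these rises and falls for which the table lists a gene, which left out Nptx1 and Gm26504, with motifs in capitals as above. CATTGT and CCGCCC are the other strands of ACAATG and GGGCGG. The windows are Tubb3 (chr8:123411303-123411602, plus strand), Id2 (chr12:25096043-25096342, minus strand), Niban1 (chr1:151571123-151571422, plus strand) and Ier5 (chr1:155099587-155099886, minus strand), each written along its gene.

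Tubb3: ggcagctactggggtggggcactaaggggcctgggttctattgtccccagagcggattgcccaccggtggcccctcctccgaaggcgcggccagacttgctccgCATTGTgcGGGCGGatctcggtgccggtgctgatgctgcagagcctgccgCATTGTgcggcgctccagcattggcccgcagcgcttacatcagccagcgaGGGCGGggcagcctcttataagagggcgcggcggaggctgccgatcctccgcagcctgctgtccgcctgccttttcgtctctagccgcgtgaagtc
Id2: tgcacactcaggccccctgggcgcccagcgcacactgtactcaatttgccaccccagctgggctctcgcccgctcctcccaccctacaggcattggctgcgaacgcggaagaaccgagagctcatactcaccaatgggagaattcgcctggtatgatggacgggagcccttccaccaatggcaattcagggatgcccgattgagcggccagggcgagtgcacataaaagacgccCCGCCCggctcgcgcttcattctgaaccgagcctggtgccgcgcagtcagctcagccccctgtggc
Niban1: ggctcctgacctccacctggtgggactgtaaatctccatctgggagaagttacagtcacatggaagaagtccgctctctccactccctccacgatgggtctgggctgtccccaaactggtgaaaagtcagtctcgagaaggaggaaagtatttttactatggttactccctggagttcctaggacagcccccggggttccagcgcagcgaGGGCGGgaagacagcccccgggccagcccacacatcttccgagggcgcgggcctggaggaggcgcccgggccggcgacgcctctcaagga
Ier5: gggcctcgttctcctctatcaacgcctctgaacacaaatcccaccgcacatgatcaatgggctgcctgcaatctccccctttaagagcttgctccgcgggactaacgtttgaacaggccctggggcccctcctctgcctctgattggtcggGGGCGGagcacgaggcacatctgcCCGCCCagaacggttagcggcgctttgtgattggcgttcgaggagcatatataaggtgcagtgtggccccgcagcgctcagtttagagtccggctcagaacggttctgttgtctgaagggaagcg

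Each of the 4 windows holds at least 1 GC box, as 57.9% of all windows did. Tubb3 holds 2 GC boxes and 2 matches to ACAATG on the other strand. The windows of Id2, Niban1 and Ier5 hold none of the POU, SOX, homeobox or TATA letters searched.

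Genes higher with the Nanog morpholino were mostly genes that uninjected embryos lose between 20 h and 44 h. The uninjected arrays entered neither side of the comparison. Of the 533 higher genes, 338 (63.4%) fell over that time in uninjected embryos, against 16.3% of all genes tested, and 5 (0.938%) rose, against 9.28%. These 338 are 13.4% of all genes that fell. Of the 242 lower genes, 94 (38.8%) rose over time and 14 (5.79%) fell, and the 94 are 6.54% of all genes that rose. Across all 15478 genes, which are not independent replicates, the 2 differences had a Pearson r of -0.42 and a Spearman rho of -0.38.

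The shares differed by control level. Of higher genes at up to 100, from 100 to 1000 and over 1000 in controls, 39.7%, 66.2% and 80.7% fell over time, against 14.4%, 16.9% and 16.3% of all genes at those levels. Of lower genes 1 of 6, 38.9% and 39.6% rose over time, against 2.63%, 4.63% and 17.7% of all genes. On single arrays, the genes that fell over time had medians of 0.48, 0.55 and 0.37 above the control mean with the knockdown. Genes that rose over time had medians of -0.42, -0.41 and -0.05 with the knockdown, so replicate 3 lay near the controls. The share of higher genes that fell over time was 47.1% to 71.5% over the alternatives. The sources used here do not give the stage of the embryos at collection, and its part in the result was not tested.

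**Figure D3:**
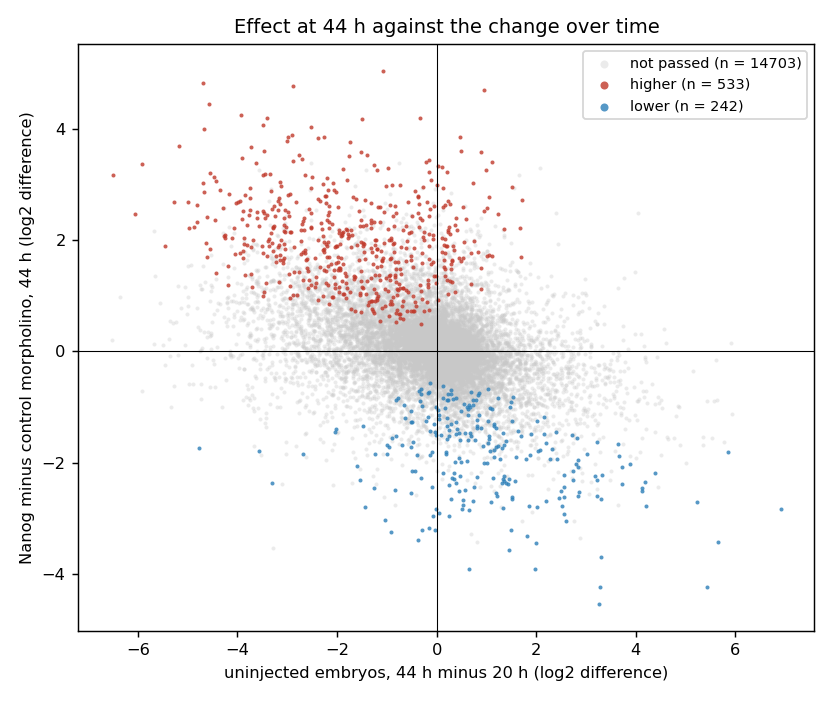
Difference between Nanog and control morpholino at 44 h (vertical, log2) against the change from 20 h to 44 h in uninjected embryos (horizontal, log2). Each point is 1 gene, red points are the 533 higher genes and blue points the 242 lower genes. Most red points lie left of 0 and most blue points right of it.

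Transcripts stored in the oocyte were among them. Of 50 maternal oocyte transcripts 6 rose (12%, against 3.44% of all genes) and 0 fell. A difference above 0 was found for 40 of the 50, against 8495 of all 15478 genes, and the median was 0.60, against 0.05 (0.58 and 0.03 under quantile normalization). Their median change over time in uninjected embryos was -1.62. Per array, the list's median lay 0.68, 0.77 and 0.38 above the control mean with the knockdown, and -0.12 to 0.02 in uninjected embryos. Gdf9, an oocyte growth factor, read 3724, 3594 and 3803 against 1569, 1771 and 1899, with groups well apart (log2 1.08, SE 0.233, adjusted p = 0.00478). It stood at 4801 ± 199.7 (mean ± SD, n = 3) in uninjected embryos at 20 h. Oosp2 and Tcl1b3, of the Tcl1 family of the egg, were at 3488 ± 1613 and 6949 ± 891 at 20 h, and Tcl1b3 rose from 472, 308 and 357 to 2902, 2254 and 680.2 (log2 2.10, SE 0.413, adjusted p = 0.00219). The others were Oosp1 (1.70), Dazl (1.39) and Omt2a (0.73). Oosp1 was lost without control replicate 2 (adjusted p = 0.102) and Dazl without knockdown replicate 1, 2 or 3 or control replicate 2 or 3 (adjusted p from 0.0617 to 0.19), and leaving out 1 array gave 4 to 9 rises.

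Genes of the 2-cell stage gave 3 rises (20%, against 3.44% of all genes) and 0 falls among 15, with a median of 0.32. Without 1 array there were 1 to 4 rises, with 1 without control replicate 2. Rfpl4b read 3629, 1203 and 1496 against 104, 126 and 162 (log2 3.71, SE 0.426, adjusted p = 3.32e-06), and 6934 ± 799 in uninjected embryos at 20 h. Its knockdown arrays were far above the controls and below that earlier level. Arg2, a mitochondrial arginase, rose by 2.43 (adjusted p = 0.00449) and Zfp352 by 2.41 (adjusted p = 0.0396). Zfp352 read 3155, 2560.3 and 1017 against 2185, 51.7 and 363, and the bright control replicate 1 makes its groups overlap. Arg2 was lost without control replicate 2 (adjusted p = 0.0645) and Zfp352 without knockdown replicate 1 or 2 or control replicate 2 or 3 (adjusted p from 0.0855 to 0.407). The list's median was 0.57, 0.28 and -0.02 on the 3 knockdown arrays.

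Germline and meiosis genes had 4 rises (12.5%, against 3.44% of all genes) and 0 falls among 32, with a median of 0.52: Slc25a31, Hormad1, Dazl and Tex15, at 2.67, 1.72, 1.39 and 1.13. Tex15 read 2982, 3063 and 2943 against 2048, 1061 and 1146, with separate groups. Each of the 4 depended on 3 or more of the 6 arrays (adjusted p without one of them from 0.0614 to 0.19), and the count of rises without 1 array was 0 to 3, with 0 without control replicate 2 or knockdown replicate 1 or 3.

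**Figure D4:**
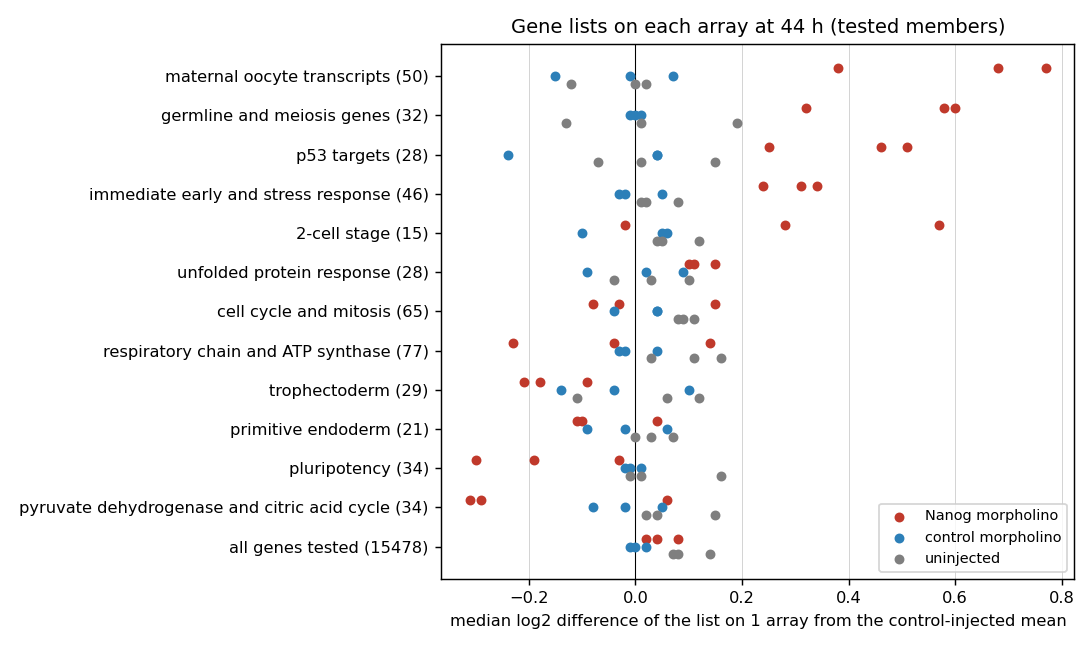
Median over the tested members of a gene list of the log2 difference of 1 array from the mean of the 3 control-injected arrays. Each point is 1 array, colours give the group, and the number of members stands in brackets. Maternal transcripts, germline genes, p53 targets and stress genes lie right of both references on all 3 knockdown arrays, and all genes together lie between -0.01 and 0.14.

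Of 46 immediate early and stress genes, 10 rose (21.7%, against 3.44% of all genes) and 1 fell (2.17%, against 1.56%), and the median was 0.35. Fos, a subunit of the AP-1 factor, read 157, 702 and 205 against 12.7, 10.4 and 18 (log2 3.35, SE 0.645, adjusted p = 0.00175). All control arrays were dim, and uninjected embryos at 20 h read 256 ± 404. Gadd45a, a growth arrest gene induced by DNA damage, read 4728, 4083 and 2343 against 1038, 142 and 359.9 (log2 3.17, SE 0.567, adjusted p = 0.000811). Its relative Gadd45b rose by 2.62 and the AP-1 subunit Fosl2 by 2.62. Gadd45b lost its call without control replicate 2 (adjusted p = 0.146), and Fosl2 without knockdown replicate 1 or control replicate 1 or 2 (adjusted p from 0.0919 to 0.108). Egr1, Hmox1, Hspa1a, Sesn2 and Txnip rose by 1.65, 1.64, 1.95, 1.47 and 1.57, and Egr1 lost its call without knockdown replicate 1 or 3 or control replicate 2 or 3 (adjusted p from 0.083 to 0.16). Hspa1a, the inducible heat shock protein, read 4043, 3183 and 2771 against 1395, 979 and 429.

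Myc, a growth-promoting factor, was the member that fell. It read 247, 569.8 and 708 against 1499, 1343 and 1359.8, with separate groups (log2 -1.55, SE 0.470, adjusted p = 0.0486), and lost its call without knockdown replicate 1 or 2 or control replicate 1, 2 or 3 (adjusted p from 0.0649 to 0.298). Of 28 genes of the unfolded protein response 0 passed in limma, against 5.01% of all genes, and at an unadjusted 0.05 there were 7 higher and 2 lower. Leaving out 1 array gave 5 to 10 rises in the stress list.

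Of 28 tested p53 targets 5 rose (17.9%, against 3.44% of all genes) and 2 fell (7.14%, against 1.56%), and the median was 0.43. Without control replicate 2 there was 1 rise and 1 fall, without knockdown replicate 2 there were 3 rises and 1 fall, and without control replicate 3 or knockdown replicate 1 there were 0 falls. Pmaip1, the pro-death protein Noxa, rose from 197, 94.0 and 109 to 422, 1718 and 1249.6 (log2 2.78, SE 0.688, adjusted p = 0.0139). Ccng1, cyclin G1, read 3502, 4144 and 4462 against 2055, 208 and 1118, with control replicate 2 far below its partners and dimmer probe sets at 0.05 and 0.96 (log2 2.32, SE 0.512, adjusted p = 0.00599). Plk2, a kinase, rose by 2.04 (adjusted p = 0.0286), and Gadd45a and Sesn2 are shared with the stress list. Perp and Apaf1, both linked to cell death, fell: Perp read 125, 286 and 476 against 1374, 1029.8 and 3207 (log2 -2.60, SE 0.674, adjusted p = 0.0192). Apaf1, a part of the apoptosome, read 298, 312 and 2334 against 1712, 4065 and 3015, where replicate 3 lies among the controls (log2 -2.16, SE 0.548, adjusted p = 0.0169). Its mean in uninjected embryos was 1105, near that of 981 with the knockdown and below that of 2931 with the control. Calls were lost for Pmaip1 without knockdown replicate 2 or control replicate 2 (adjusted p from 0.0688 to 0.075), for Ccng1 without control replicate 2 (adjusted p = 0.0924), for Perp without knockdown replicate 1 or control replicate 3 (adjusted p from 0.105 to 0.137) and for Apaf1 without knockdown replicate 1 or 2 or control replicate 2 or 3 (adjusted p from 0.0515 to 0.143). Cdkn1a, the p53 target that stops the cell cycle, read 3739, 4618 and 5653 against 2463, 1493 and 2777, with separate groups, and did not pass (log2 1.08, SE 0.577, adjusted p = 0.349). Of the 33 genes of the Bcl2 family and apoptosis list 1 rose (3.03%), Pmaip1, and 2 fell (6.06%), Apaf1 and Bok. Bok was at -1.26 and lost its call without knockdown replicate 1 or 2 or control replicate 1, 2 or 3 (adjusted p from 0.084 to 0.256). Against uninjected embryos 1 gene of this list passed as higher and 0 as lower.

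Enzymes of the citric acid cycle and its supply gave 0 rises and 3 falls (8.82%, against 1.56% of all genes) among 34, with a median of -0.28. There was 1 fall without control replicate 3 or knockdown replicate 1 or 2, and there were 6 without knockdown replicate 3. Suclg2, a subunit of succinyl-CoA ligase, read 44.4, 98.6 and 248 against 938, 1520.0 and 976 (log2 -3.21, SE 0.535, adjusted p = 0.000347), and a second probe set fell too (log2 -2.03). The groups are far apart and the call held without each array in turn. Sdha, the catalytic subunit of succinate dehydrogenase, read 1066, 936 and 1134 against 3464, 5389.7 and 3857 (log2 -1.98, SE 0.536, adjusted p = 0.0254). The probe set of Sdha that was brighter on the arrays of these groups gave -0.80, with an unadjusted p of 0.0802 in limma. The third fall, Idh1, is an isocitrate dehydrogenase of the cytosol, counted in the list but no enzyme of the cycle itself. Idh1 read 83.4, 273 and 1786 against 2743, 1688 and 3602, with replicate 3 inside the control range (log2 -2.79, SE 0.724, adjusted p = 0.0196). Sdha lost its call without knockdown replicate 1 or 2 or control replicate 2 or 3 (adjusted p from 0.0524 to 0.123), and Idh1 without knockdown replicate 1 or 2 or control replicate 1 or 3 (adjusted p from 0.056 to 0.209). On replicate 3 the list's median was 0.06, against -0.29 and -0.31 on replicates 1 and 2. Of 77 genes of the respiratory chain 1 passed, Sdha, a fall (1.3%, against 1.56% of all genes), and the median was -0.06.

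Glycolysis genes moved both ways, with 4 rises and 2 falls among 30 (13.3% and 6.67%, against 3.44% and 1.56% of all genes) and a median of -0.01. There were 3 rises and 0 falls without control replicate 1 or 3, and 2 rises without control replicate 2 or knockdown replicate 1 or 2. Pfkp, a phosphofructokinase, read 1604, 1594 and 701 against 220.5, 152 and 421 (log2 2.25, SE 0.320, adjusted p = 5.61e-05). Pgk1, phosphoglycerate kinase, read 6686, 4419.6 and 5638 against 1295, 1367 and 2796 (log2 1.68, SE 0.317, adjusted p = 0.00146), and its 2 other probe sets rose by 1.79 and 1.64. Groups of both genes are separate. Eno3 and Slc16a1 rose by 2.43 and 0.99, and Hk1, a hexokinase, fell from 3142, 3850.3 and 3057 to 94.0, 1564 and 637 (log2 -2.79, SE 0.817, adjusted p = 0.0408). Pgam2 fell by 1.49. Calls were lost for Hk1 without knockdown replicate 1 or control replicate 1, 2 or 3 (adjusted p from 0.0783 to 0.338), for Eno3 without knockdown replicate 1 or 2 or control replicate 2 or 3 (adjusted p from 0.0848 to 0.186) and for Pgam2 without knockdown replicate 1 or 2 or control replicate 1 or 3 (adjusted p from 0.0763 to 0.192). Amino acid transporters gave 3 rises (7.69%, against 3.44% of all genes) and 0 falls among 39, led by Slc1a5, a glutamine carrier, from 122, 81.1 and 361 to 3775, 1638 and 2107 (log2 3.79, SE 0.745, adjusted p = 0.00215).

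Among 65 cell cycle genes 4 rose and 3 fell (6.15% and 4.62%, against 3.44% and 1.56% of all genes), and 2 rose and 1 fell without control replicate 2. There was also 1 fall without control replicate 3 or knockdown replicate 1 or 2. E2f1, a factor of entry into S phase, read 4117, 4697 and 4089 against 1431, 1585 and 2063 (log2 1.35, SE 0.216, adjusted p = 0.000227), and Cenpf, a kinetochore protein, 7136, 6529 and 6131 against 3137, 2645 and 3052 (log2 1.16, SE 0.187, adjusted p = 0.000249). Both groups are tight and apart, and both genes were brighter still at 20 h in uninjected embryos, at 7366 ± 777 and 7965 ± 54.1. Cdkn1b, a cell cycle inhibitor, rose by 1.85 and Spc25 by 1.14. Anln, an actin binding protein of the cleavage furrow, fell from 2219.8, 2947 and 2068 to 176, 596 and 1231 (log2 -2.19, SE 0.420, adjusted p = 0.00174), while its second, dimmer probe set gave 0.65 and the mean of both did not pass (adjusted p = 0.317), and Aurkc and Ect2 fell by 1.17 and 0.83. Cdkn1b lost its call without knockdown replicate 1 or control replicate 2 (adjusted p from 0.0517 to 0.103), and Aurkc without knockdown replicate 1 or 2 or control replicate 2 or 3 (adjusted p from 0.0603 to 0.234).

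Of 24 Hippo pathway genes 2 rose, Wwc1 (2.13) and Frmd6 (1.13), and 2 fell, Tead3 (-2.79) and Amotl2 (-1.67), or 8.33% each. Of all genes tested 3.44% rose and 1.56% fell, the shares to set beside each list of this paragraph. Tead3 is a DNA binding partner of the effector Yap, and read 65.2, 36.4 and 33.7 against 439, 227 and 615. With the Nanog experiment alone another probe set represents Wwc1, at -0.06. Calls were lost for Wwc1 without knockdown replicate 1 or control replicate 2 or 3 (adjusted p from 0.0553 to 0.0844), for Tead3 without control replicate 3 (adjusted p = 0.0574), for Frmd6 without knockdown replicate 2 or 3 or control replicate 1 or 3 (adjusted p from 0.0571 to 0.115) and for Amotl2 without knockdown replicate 1 or 2 or control replicate 2 (adjusted p from 0.0513 to 0.147). Of 32 tight junction and polarity genes 0 rose and 1 fell (3.12%): Ocln, occludin, from 2004, 1842 and 2039 to 393, 227 and 591 (log2 -2.33, SE 0.425, adjusted p = 0.000999), a call that held without each array in turn. Of 55 genes of the nuclear pore and transport 1 rose (Nup210l, 2.18) and 3 fell (Nup188, Nup37 and Ndc1, at -2.44, -2.24 and -1.89), or 1.82% and 5.45%. The 3 falls lost their calls, Nup188 without knockdown replicate 1 or 2 or control replicate 1 or 2 (adjusted p from 0.0584 to 0.203), Nup37 without knockdown replicate 1 (adjusted p = 0.0925) and Ndc1 without knockdown replicate 1 (adjusted p = 0.0887). A second probe set of Nup188 gave -0.04, and the other probe sets of Ndc1 gave -2.60 and 0.44. Of 17 DNA methylation genes 0 rose and 1 fell (5.88%): Dnmt3b, a de novo methyltransferase, from 2572, 2701 and 2308 to 801, 1211 and 253 (log2 -1.97, SE 0.436, adjusted p = 0.00606), lost without knockdown replicate 3 (adjusted p = 0.0528). Of 25 Wnt genes Fzd7 rose (1.91) and Gsk3b fell (-2.37), or 4% each. Of the 3 bright probe sets of Gsk3b, 2 gave -2.37 and -2.09 and the other gave 0.36. Fzd7 lost its call without knockdown replicate 1 or control replicate 2 or 3 (adjusted p from 0.0575 to 0.163).

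Lists of the basic cell machinery had few called members, as did all genes tested, of which 3.44% rose and 1.56% fell. Of 47 cytosolic ribosomal proteins 42 lay below 0, against 6983 of all 15478 genes, with a median of -0.10. The list's median was -0.10, -0.24 and 0.01 on knockdown replicates 1, 2 and 3. In limma 0 of 47 proteasome genes, 0 of 15 of the chaperonin CCT, 0 of 63 translation factors and 0 of 38 aminoacyl-tRNA synthetases passed, with 4, 0, 6 and 5 at an unadjusted p under 0.05. Of 47 cytosolic ribosomal proteins 1 rose, Rpl39l, and 1 fell, Rps6, or 2.13% each. Rps6 was at -1.65 (SE 0.410) and lost its call without knockdown replicate 1 or control replicate 3 (adjusted p from 0.0572 to 0.0926). Of 103 subunits of RNA polymerases, general factors and Mediator 3 rose (2.91%), among them Gtf2f2, a subunit of TFIIF, and 0 fell. Of 76 mitochondrial ribosomal proteins 2 rose (2.63%), Mrpl13 (2.36) and Mrps6 (1.21), and 0 fell. Mrps6 lost its call without control replicate 2 (adjusted p = 0.0597). A second probe set of Rps6 gave -0.16, and the other 3 of Mrpl13 gave 2.38, 0.69 and 0.17. The medians of these lists lay between -0.10 and 0.12.

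Against uninjected embryos, 1296 genes passed (8.37%), 783 higher (5.06%) and 513 lower (3.31%). This comparison shares the knockdown arrays with the first. Of the 533 higher genes 340 also passed as higher against uninjected embryos, and of the 242 lower genes 165 as lower, which is no independent support. Ier5 was 4.75 (adjusted p = 3.36e-07) above uninjected embryos, Nptx1 6.05 (adjusted p = 0.000229), and Pou5f1 -0.81 (adjusted p = 0.00552). Gata3 and Acss2 did not pass there, at -1.63 (adjusted p = 0.446) and -1.22 (adjusted p = 0.444).

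Control-injected and uninjected embryos differed in 54 genes (0.349%), of which 26 were higher and 28 lower with the control morpholino (32 and 7 after median centring, under which the median over all genes went from -0.09 to 0.03). This comparison shares the control arrays with the first, and no overlap with it is given. Gtf2f2 read 5967, 5096 and 6269 with the Nanog morpholino, 1866, 1455 and 2595 with the control and 5604, 4912 and 5781 without injection. Rpl39l read 4185, 5167 and 5259, 1431, 1533 and 1447 and 6121, 7067 and 4669. For both genes the knockdown arrays stood with the uninjected arrays and the control-injected arrays stood below. Against uninjected embryos their differences were 0.09 (adjusted p = 0.867) and -0.28 (adjusted p = 0.713), and control-injected against uninjected -1.49 (adjusted p = 0.001) and -1.99 (adjusted p = 0.00679). Against the other set of control-injected arrays, the Oct4 and Sall4 morpholinos gave 1.93 and 1.84 for Gtf2f2, and 1.69 and 1.51 for Rpl39l.

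At 20 h the Nanog morpholino changed fewer genes: 96 passed (0.62%), 36 higher (0.233%) and 60 lower (0.388%). That comparison shares no array with the one at 44 h. Of the 533 genes higher at 44 h 4 were higher at 20 h (0.75%), and of the 242 lower genes 7 were lower (2.89%), or 11.1% and 11.7% of the genes called in those directions at 20 h. Nanog itself was dim then, at 83.2 ± 53.2 with its morpholino and 111 ± 76.0 with the control. The effect differed between times for 128 genes (0.827%), with a positive difference for 95 and a negative one for 33 (50 and 38 under quantile normalization). Ptpn22, at 1.32 at 20 h and -3.57 at 44 h, had a difference of -4.88 (adjusted p = 0.00394). Suclg2 went from 1.03 to -3.21 (difference -4.25, adjusted p = 0.00442), and Ier5 from 0.72 to 4.46 (3.74, adjusted p = 0.00539). Rpl39l was higher at both times, by 1.58 (adjusted p = 0.0291) at 20 h.

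The Oct4 and Sall4 morpholinos were tested at 44 h on other arrays with their own controls, which those 2 comparisons share. With the Oct4 morpholino 1789 genes passed (11.6%), 832 higher (5.38%) and 957 lower (6.18%). Of the 533 genes higher with the Nanog morpholino 145 were higher there (27.2%, and 17.4% of the 832), and of the 242 lower genes 53 were lower (21.9%, and 5.54% of the 957). With the Sall4 morpholino 614 genes passed (3.97%), 284 higher (1.83%) and 330 lower (2.13%). Of the 533 genes 54 were higher there (10.1%, and 19% of the 284), and of the 242 genes 14 were lower (5.79%, and 4.24% of the 330). Intensities of those arrays are on a lower scale, and all groups share 1 estimate of each gene's spread. The 24 arrays outside the Nanog experiment had medians of 26.1 to 33.3, against 193 to 224 for its arrays at 44 h.

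Pou5f1 fell with all 3 morpholinos, at -0.70 (adjusted p = 0.0236) with Nanog, -0.82 (adjusted p = 0.00323) with Oct4 and -0.88 (adjusted p = 0.00456) with Sall4. The Nanog effect differed from these by 0.12 (SE 0.263) and 0.19 (SE 0.263), which does not show that they are alike. Dab2 was at -1.35 with Nanog, -2.21 with Oct4 and -2.83 with Sall4, Amotl2 at -1.67, -1.96 and -2.65, and Sdha at -1.98, -2.10 and -2.77. Of the 533 higher genes 39 were higher with all 3 morpholinos, and of the 242 lower genes 9 were lower with all 3. Pou5f1, Dab2, Amotl2 and Sdha are among the latter, so it adds no support that each of their values passed. Ier5 rose by 4.46 with Nanog and by 4.22 with Oct4, and was at 1.35 (adjusted p = 0.12) with Sall4.

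The effect differed from that of the Oct4 morpholino for 329 genes (2.13%) and from that of the Sall4 morpholino for 115 (0.743%), in the last case positive for 95 and negative for 20 (72 and 38 under quantile normalization). In these contrasts the morpholino cannot be told apart from the experiment and its intensity scale. Fgd6 was at 4.26 with Nanog, 0.64 with Oct4 and 0.26 with Sall4, and differed from both (adjusted p = 0.0063 and 0.00553). So did Oosp2 (adjusted p = 0.0184 and 0.0252), Pfkp (0.0029 and 0.00717) and Pilrb1 (0.0182 and 0.0309). Rps6, a ribosomal protein, fell with Nanog and rose with Oct4, at -1.65 and 2.06 (adjusted p of the difference = 0.000299). Gadd45a and Fam43a, at 3.17 and 4.04 with Nanog, were at -1.07 and -0.25 with Sall4 (adjusted p of the difference = 0.0058 and 0.0107).

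**Figure D5:**
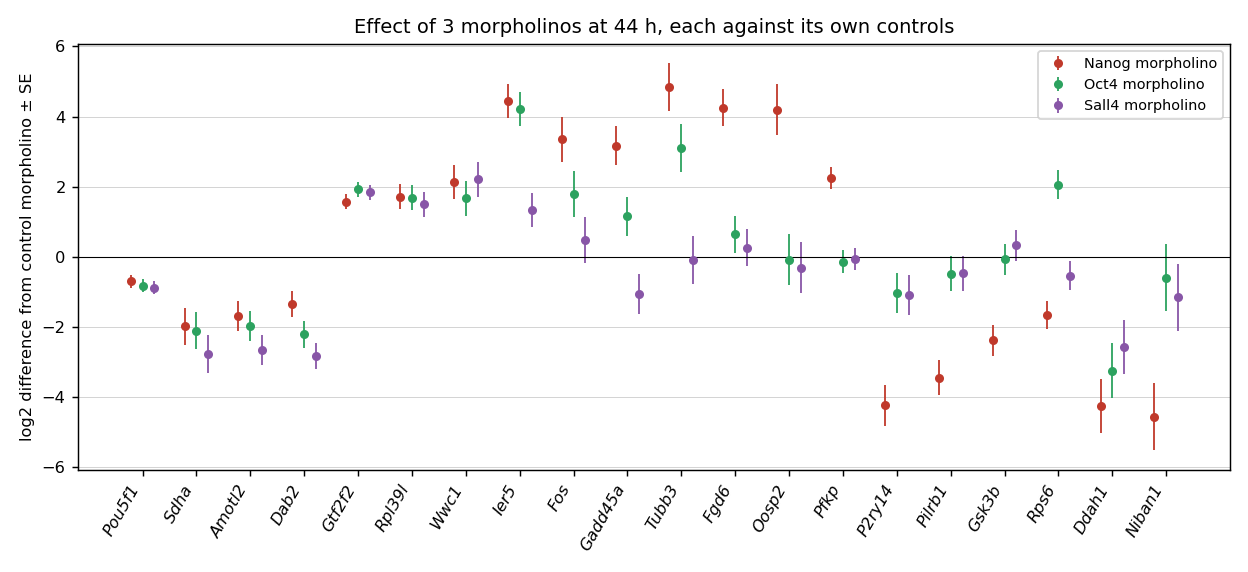
Log2 difference from the control morpholino at 44 h, with its SE, for 20 named genes with the Nanog, Oct4 and Sall4 morpholinos, 3 arrays a group. The Oct4 and Sall4 values share their control arrays and come from another experiment, on a lower intensity scale. All 3 points lie below 0 for Pou5f1, Sdha, Amotl2 and Dab2, while those of Fgd6, Oosp2 and Pfkp lie higher with the Nanog morpholino than with the Oct4 and Sall4 morpholinos.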

How the data were processed

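RNA of mouse embryos, amplified with NuGEN WT-Ovation One-Direct per the labels' protocols, was measured on Affymetrix arrays. The authors deposited 1 intensity for each of 45101 probe sets on 42 arrays, on a linear scale; the sources used here do not give how they made or normalized it. Probe sets with 1 gene symbol (34945) were named from the platform annotation, and the probe set with the highest mean stood for each of 18193 genes. Genes were tested (15478) where a group mean of log2(intensity + 16) exceeded the median of the table (6.45). One limma 3.58.1 model (R 4.3.3) took all 42 arrays, 14 groups of 3 with 28 residual degrees of freedom, and tests were two-sided. Exact permutation of 3 against 3 arrays cannot go below p = 0.1. The number of arrays limits the precision. Nothing beyond the titles says that replicates are separate cultures, so p-values rest on the spread among these arrays. The scripts were tested on simulated data.

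Genes named were Nanog, Pou5f1, Sall4, the 15 largest rises and 15 largest falls with separate arrays, up to 5 called members of each list and fixed lineage genes; others were named after their values were seen. Members and lists were chosen with earlier results of these data known. Alternatives covered pseudocount, normalization, filter, probe sets, arrays in the fit and each array left out. Windows at gene starts come from RefSeq (GRCm38.p6).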

Additional observations from a re-analysis of the deposited data

Results flagged for a closer look

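The values here are differences between 2 log2 effects of a morpholino against its own control, tested as an interaction term in limma, and each passed at an adjusted p under 0.05. The effect of the Nanog morpholino differed between 44 h and 20 h for 128 genes. Named genes with a more positive effect at 44 h were Slc25a35, a mitochondrial carrier (4.89), Tubb3 (4.41), Ptger4 (4.25), 1700001L05Rik (4.02), 8430429K09Rik (4.0), Pmaip1 (3.99), Fam43a (3.86), Ier5 (3.74), Rfpl4b (3.58), Gadd45a (3.45), Fgd6 (3.39), Ascl2 (2.99), Pfkp (2.36), Mrps6 (1.72), E2f1 (1.33) and Cenpf (1.28). Those with a more negative effect were Ptpn22 (-4.88), P2ry14 (-4.40), Suclg2 (-4.25), Pilrb1 (-3.60), Slc12a7 (-3.44), Dnmt3b (-2.61) and Gsk3b (-2.48).

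The effect differed from that of the Oct4 morpholino at 44 h for 329 genes. Here and for the Sall4 morpholino, the morpholino cannot be told apart from the experiment and its intensity scale. It was more positive with the Nanog morpholino for 1700001L05Rik (4.99), Oosp2 (4.27), 4930447F24Rik (3.81), Fgd6 (3.62) and Pfkp (2.38), and more negative for Rps6 (-3.71), P2ry14 (-3.20), Pilrb1 (-2.97) and Gsk3b (-2.31).

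The effect differed from that of the Sall4 morpholino for 115 genes. It was more positive for Tubb3 (4.93), Oosp2 (4.50), Fam43a (4.29), Gadd45a (4.24), Fgd6 (4.0), 4930447F24Rik (3.89), 1700001L05Rik (3.79), Pfkp (2.32), Ier5 (3.11), Pgk1 (2.21), Dusp1, a phosphatase of MAP kinases (2.13), and Mrpl13 (2.01). It was more negative for Apaf1 (-3.29), Pilrb1 (-2.98) and Gsk3b (-2.71).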

How the results depend on the processing

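The 775 genes became 442 and 1266 with pseudocounts of 1 and 64, 22 with the 6 arrays alone and 1458 against the mean of both controls. The run with the 6 arrays had fewer residual degrees of freedom, tested 11515 genes and chose probe sets anew. Leaving out 1 array gave 410 to 972. The 1296 genes against uninjected embryos became 695 and 2271 with those pseudocounts, and 689 to 1325 without 1 array, lowest without uninjected replicate 2 and 804 without knockdown replicate 1. The 54 genes between control-injected and uninjected embryos became 10 and 314, 14 under quantile normalization (9 higher, 5 lower), 25 with the 75th percentile filter, 4 with the 18 arrays of the Nanog experiment and 15 to 160 without 1 array. The 128 genes that differed between times became 39 and 303, 20 with the 18 arrays and 71 to 201 without 1 array. The 329 genes that differed from Oct4 stayed within 1.5 times under each alternative, at 241 to 366 without 1 array. The 115 that differed from Sall4 became 196 with a pseudocount of 64, 178 with the mean of all probe sets and 73 to 200 without 1 array. The causes were not tested.

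Of the 114 named genes called, 43 were called whichever array was left out, 98 with the replicate block, 69 with the 18 arrays, 4 with the 6 arrays and 3 in every alternative. Reversed values were -0.057 for Wwc1 (18 arrays), 0.36 for Gsk3b and -0.14 for Scd1 (18 and 6 arrays), where another probe set represents the gene. Deviations of same-numbered knockdown and control arrays correlated at 0.02, 0.06 and 0.02, against -0.04 to 0.02 for arrays of different numbers. For knockdown and uninjected arrays the values were -0.002, 0.08 and 0.02, against -0.05 to 0.03. For control-injected and uninjected arrays they were 0.09, 0.13 and 0.06, against -0.10 to 0.01. A weak pairing by replicate number is therefore not excluded, and the main model has no such term. With the replicate block the 6 counts above were 694, 1234, 38, 99, 321 and 103. Weak signals limit genes under about 71.2, the level of the filter.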

Other observations

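Several groups of genes outside the comparisons above had few members that passed, beside 3.44% of all genes that rose and 1.56% that fell. Dusp1 and Dusp4, phosphatases that switch off MAP kinases, rose among 26 genes of FGF and MAPK signalling, together with Egr1 (11.5%), and 0 fell. Dusp1 read 3601, 2083 and 2326 with the Nanog morpholino and 1265, 749.7 and 973 with the control (log2 1.40, SE 0.285, adjusted p = 0.00294), with separate groups. Dusp4 read 839, 79.6 and 159.8 against 28.3, 33.2 and 60.8 (log2 2.14, SE 0.641, adjusted p = 0.0462), its replicate 1 far above the others, and lost its call without knockdown replicate 1 or control replicate 1, 2 or 3 (adjusted p from 0.0559 to 0.388). Of 41 mitochondrial carriers 2 rose (4.88%) and 1 fell (2.44%). Slc25a35 read 938, 55.9 and 780.1 against 8.92, 2.05 and 24.7 (log2 3.85, SE 0.844, adjusted p = 0.00568), with a dim knockdown replicate 2, and lost its call without knockdown replicate 1 (adjusted p = 0.0561).

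Chromatin genes moved singly, at shares to be set beside 3.44% of all genes that rose and 1.56% that fell. Kat7, a histone acetyltransferase, read 1668, 1351 and 725 against 2899, 3682 and 3652 (log2 -1.51, SE 0.324, adjusted p = 0.00474), and Pcgf6, a Polycomb subunit, 6081, 4821 and 4774 against 2922, 2668 and 2978 (log2 0.86, SE 0.176, adjusted p = 0.00294). Both held without each array in turn, other probe sets gave -0.02 and -1.04 for Kat7 and 1.38 and 0.32 for Pcgf6, and 2 of 73 histone modifying enzymes rose and 1 fell. Of 56 genes of chromatin remodelling complexes 0 rose and 2 fell (3.57%), Arid1b (-1.06) and Brd7 (-0.67), lost without knockdown replicate 1 or control replicate 1, 2 or 3 (adjusted p from 0.0754 to 0.483) and without each of the 6 arrays (adjusted p from 0.0544 to 0.189). Of 64 genes of DNA replication and nucleotide supply 0 rose and 1 fell (1.56%): Rrm1, a subunit of ribonucleotide reductase, read 1950.3, 2779 and 3279 against 5522, 6437 and 6626 (log2 -1.24, SE 0.320, adjusted p = 0.0192), lost without knockdown replicate 1 or control replicate 2 or 3 (adjusted p from 0.0583 to 0.129). Among 27 regulators of zygotic activation Obox3, an oocyte homeobox gene, rose from 536, 483 and 1136 to 4199.7, 1851 and 1710.3 (log2 1.81, SE 0.440, adjusted p = 0.0125), lost without knockdown replicate 1 or control replicate 1 or 2 (adjusted p from 0.0551 to 0.119), and Myc fell, or 3.7% each.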
